A study of Mus musculus with 2 samples.

Results

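The nuclear genes for mitochondrial respiration, the mitochondrial ribosome and mitochondrial protein import carried 14 of the 1404 Aiolos peaks called in mouse natural killer (NK) cells. The peaks were chosen by the gene symbol that the authors assigned to them: Nduf (complex I), Uqcr (complex III), Cox and Coa with a number (complex IV and its assembly), Atp5 (ATP synthase), Mrpl and Mrps with a number (mitochondrial ribosome), and Timm and Tomm with a number (import). Each of the 14 peaks named a different gene, and 14 of the 210 protein-coding genes with such symbols had a peak. The data are CUT&RUN, in which antibody-bound micrococcal nuclease releases the DNA around a chromatin protein for sequencing. Aiolos is the Ikaros family zinc finger factor encoded by Ikzf3. Both libraries came from spleen NK cells, grown in medium with interleukin-15 at 50 ng/ml until a sample held 500000 cells or more: 1 library was made with the Aiolos antibody and 1 without a primary antibody. The labels' growth protocol describes this culture, while the design text of the series also calls the cells freshly isolated, so the state of the cells at harvest is not fully given. The sources used here do not give strain, genotype, sex or age of the mice. A single library per group allows neither a replicate error nor a test between libraries, so every value below is a description of 1 peak list.

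Mitochondria make most of a cell's ATP by oxidative phosphorylation. Complex I, complex III and complex IV pass electrons to oxygen and pump protons, and ATP synthase uses the proton gradient. Most subunits are encoded in the nucleus, made in the cytosol and imported through the TOM complex of the outer membrane and the TIM complexes of the inner membrane, while a few core subunits are encoded in mitochondrial DNA and made by the mitochondrial ribosome. Promoters of the nuclear genes are known for sites of NRF1, of ETS factors such as GABP, and of YY1. Activated NK cells raise respiration as they grow and produce effector molecules.

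The sequences under the peaks are shown first where the peak reached into the promoter window of RefSeq (GRCm38.p6, the assembly of mm10), 300 bases that run from 250 before the start. Such a sequence was held for 12 of the 14 genes, and the peak overlapped the window in 11. Capitals in the first set mark GGGAA, the core that Ikaros family zinc fingers recognise, on either strand (TTCCC is its reverse complement). The set shows the 4 genes whose peak summit lay inside the window together with such a core. Atp5g1 is on the minus strand at chr11:96075787-96075881, Mrps11 on the plus strand at chr7:78783113-78783180, Ndufs7 on the plus strand at chr10:80249199-80249418 and Timm17b on the plus strand at chrX:7899086-7899385. Each is written 5′ to 3′ on the strand of its gene and holds only the bases shared by the peak and the window.
Atp5g1: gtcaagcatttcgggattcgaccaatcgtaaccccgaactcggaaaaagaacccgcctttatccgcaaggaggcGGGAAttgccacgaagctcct
Mrps11: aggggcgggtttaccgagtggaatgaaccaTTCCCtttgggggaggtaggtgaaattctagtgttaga
Ndufs7: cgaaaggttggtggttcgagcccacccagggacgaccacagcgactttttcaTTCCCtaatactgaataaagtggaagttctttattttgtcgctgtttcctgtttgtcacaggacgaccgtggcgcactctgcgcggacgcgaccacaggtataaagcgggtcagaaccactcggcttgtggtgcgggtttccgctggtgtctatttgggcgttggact
Timm17b: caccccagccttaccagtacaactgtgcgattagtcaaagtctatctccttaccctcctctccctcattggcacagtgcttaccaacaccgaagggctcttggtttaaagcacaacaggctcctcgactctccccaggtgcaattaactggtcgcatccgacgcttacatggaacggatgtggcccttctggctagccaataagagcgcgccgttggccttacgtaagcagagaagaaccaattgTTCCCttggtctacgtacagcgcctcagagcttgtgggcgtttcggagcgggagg

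Within the promoter windows, the nearest core was centred 8 bp from the summit in Atp5g1, 25 bp in Ndufs7, 31 bp in Mrps11 and 208 bp in Timm17b. Atp5l and Ndufb11 also had a core inside the peak, centred 171 and 234 bp from summits that lay outside their windows. Such distances were not measured at promoter peaks of other genes. The bases of the peaks outside the windows were not read, so a nearer core there would not be seen. The other summits inside their windows, those of Cox20 and Ndufv1, had no GGGAA in the window, so 4 of 6 such promoters held it. This short motif is common. It occurred in 8 of 12 promoters of family genes with a peak (66.7%, 95% exact Clopper-Pearson interval 34.9 to 90.1), in 62.0% of 166 family genes without a peak, in 64.6% of 726 other genes with a promoter peak and in 62.3% of 27025 promoters in all. Its frequency in these promoters was therefore near that of promoters in general.

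The second set shows the peaks that covered a site typical of respiration genes. Capitals mark the ETS motif CCGGAAG and the NRF1 core GCATGCG, on either strand. The YY1 motif GCCATNTT was searched too and did not fall in these 3 stretches. The marked ETS motif was centred 54 bp from the summit in Cox20, 126 bp in Mrps18b and 190 bp in Atp5l. The nearest NRF1 core was 141 bp from the summit in Mrps18b and 161 bp in Atp5l. The summits of Atp5l and Mrps18b lie outside the printed stretches, which hold 38.0% and 41.3% of their peaks. Atp5l is on the minus strand at chr9:44920847-44920992, Cox20 on the plus strand at chr1:178318903-178319077 and Mrps18b on the minus strand at chr17:35916391-35916554.
Atp5l: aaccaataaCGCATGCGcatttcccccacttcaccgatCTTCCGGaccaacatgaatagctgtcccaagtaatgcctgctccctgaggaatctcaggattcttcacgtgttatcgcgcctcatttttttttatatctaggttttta
Cox20: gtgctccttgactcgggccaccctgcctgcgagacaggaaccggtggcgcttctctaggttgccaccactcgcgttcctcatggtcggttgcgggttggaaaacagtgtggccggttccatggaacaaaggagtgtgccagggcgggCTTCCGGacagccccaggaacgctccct
Mrps18b: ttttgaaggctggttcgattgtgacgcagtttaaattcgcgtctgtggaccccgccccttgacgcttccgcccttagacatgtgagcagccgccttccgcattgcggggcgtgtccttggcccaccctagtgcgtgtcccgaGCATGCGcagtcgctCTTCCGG

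ETS motifs were in 4 of the 12 promoters (33.3%, 9.92 to 65.1), those of Atp5l, Cox20, Mrps18b and Mrpl57. The share was 31.9% (24.9 to 39.6) in family genes without a peak, 16.9% in other genes with a promoter peak and 9.15% in all promoters. YY1 motifs were also in 4 of 12 (33.3%), in Cox20, Mrps11, Ndufb11 and Ndufs7, against 23.5% of family genes without a peak, 10.7% of other genes with a promoter peak and 6.23% of all. The NRF1 core was in 2 of 12 (16.7%), Atp5l and Mrps18b, against 10.8%, 7.71% and 3.66% in the same order. The longer NRF1 site, GCGCA followed by its reverse complement, contains that core and was in 0 of 12, against 6.02% of family genes without a peak and 0.981% of all promoters. The set of all promoters also holds genes that are not protein-coding. In the 17492 protein-coding promoters the shares were 11.9% for ETS, 6.69% for YY1 and 4.52% for the NRF1 core. In ETS and YY1 motifs the genes with a peak thus resembled their own families without a peak, with wide intervals.

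Of the remaining motifs, the GC box GGGCGG was in 6 of 12 (50.0%), against 48.2% of family genes without a peak and 68.0% of other genes with a promoter peak. The AP-1 motif TGANTCA was in 1 of 12, at Atp5g1 (8.33%, against 7.93% of all promoters). TGACGTCA, the CRE bound by ATF and CREB factors, was in 1 of 12, at Coa7 (8.33%, 0.211 to 38.5). It was in 1.87% of all promoters and 2.34% of protein-coding ones. The RUNX motif TGTGGTT was in 0 of 12, against 5.38% of all promoters. The median GC content was 56.7%, against 59.0% in family genes without a peak and 60.7% in other genes with a promoter peak. It was 56.3% in protein-coding promoters and 52.7% in all promoters. The ratio of observed to expected CpG was 0.739, 0.820, 0.818, 0.577 and 0.389 in the same order. A motif match is a description of the letters, and its occupancy was not measured.

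**Figure D1:**
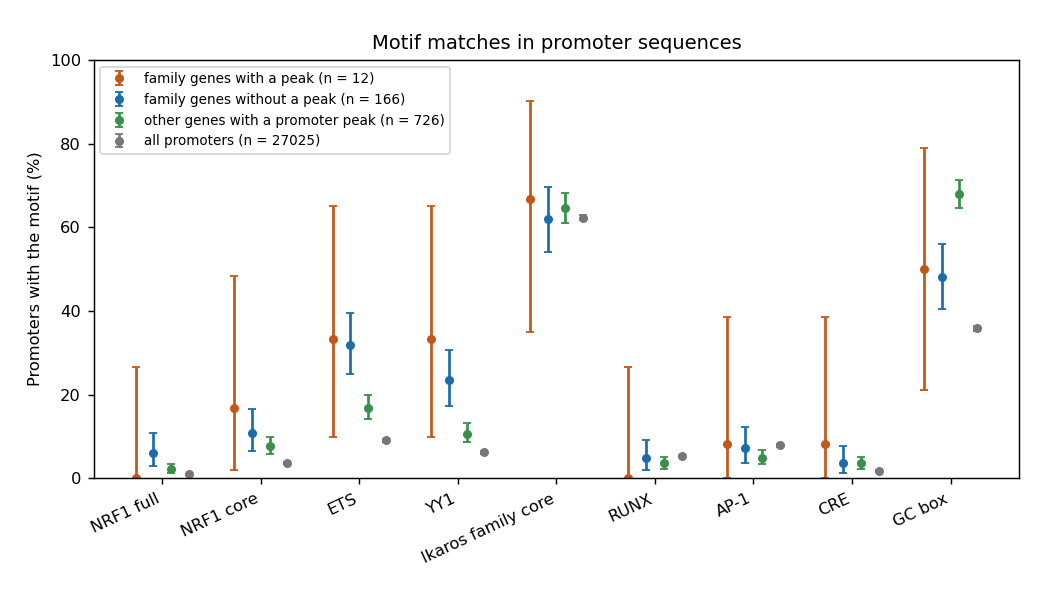
Share of promoters (percent, vertical axis) with each motif on either strand, for 12 family genes with a peak, 166 family genes without one, 726 other genes with a promoter peak and all 27025 promoters; bars are 95% exact Clopper-Pearson intervals. ETS and YY1 motifs were at 33.3% each in the genes with a peak and at 31.9% and 23.5% in their families without one, while GGGAA lay between 62.0% and 66.7% in every set.

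Complex I was represented by Ndufs7, Ndufv1 and Ndufb11, 3 of its 41 listed subunit genes (7.32%, 1.54 to 19.9). Fold enrichment is the authors' value for each peak, the ratio of the antibody signal at the summit to the local background. Tags are the sequenced fragments behind the summit, recovered from the authors' values, and each interval below is a 95% exact Poisson interval of the tags that covers counting error only. Ndufv1, a flavoprotein subunit that takes electrons from NADH, had a peak on chromosome 19 at 4012798 to 4013119 with 5.90-fold enrichment (2.70 to 11.9) from 6 tags. Ndufb11, an accessory subunit encoded on the X chromosome, had the same 6 tags and 5.90-fold at 20617372 to 20617780. Ndufs7, a core subunit that holds an iron-sulfur cluster near the quinone site, had 5.87-fold (2.80 to 11.3) from 7 tags on chromosome 10 at 80249142 to 80249418. The 3 complex I values were almost equal, but each rests on only 6 or 7 tags. Ndufv1 and Ndufb11 have the same fold because both had 6 tags over a local background of 0.186. The intervals overlapped almost entirely.

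ATP synthase had 2 of 17 genes with a peak (11.8%, 1.46 to 36.4), both for subunits of the membrane-embedded part. Atp5l, which encodes subunit g, had 6.44-fold (3.07 to 12.4) from 7 tags on chromosome 9 at 44920847 to 44921230. Atp5g1, 1 of the genes for the c subunit of the proton-driven ring, had 4.40-fold (1.92 to 9.29) from 5 tags on chromosome 11 at 96075787 to 96075996. No peak was assigned to the 8 complex III genes (upper 95% exact bound 36.9%) or to the 18 genes for complex IV subunits (upper bound 18.5%). Both bounds lie above 5.38%, the share of all protein-coding genes with an assigned peak.

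Assembly factors had 3 of 23 genes with a peak (13%, 2.78 to 33.6), all of them factors of complex IV. Coa7 had the strongest peak of the whole group, 14.3-fold (8.56 to 22.8) from 16 tags, rank 19 of 1404. It lay on chromosome 4 at 108328147 to 108328446, from 6 bp upstream to 293 bp downstream of the start. Cox20, a chaperone for an early step of complex IV assembly, had 5.39-fold (2.57 to 10.4) from 7 tags on chromosome 1 at 178318867 to 178319077. Coa6, which takes part in copper delivery to complex IV, had 4.40-fold (1.92 to 9.29) from 5 tags on chromosome 8 at 126422711 to 126422966. The class thus held both the strongest peak and one of the 3 weakest. None of the 8 Ndufaf genes, which assemble complex I, had a peak (upper 95% exact bound 36.9%). This bound lies above the 5.38% of all protein-coding genes with an assigned peak. The Cox and Coa assembly factors had 3 of 15 (20.0%, 4.33 to 48.1). The intervals of the 2 sets overlap, so no difference between factors of the 2 complexes was resolved.

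The mitochondrial ribosome had 4 of 78 genes with a peak (5.13%, 1.41 to 12.6): 2 of 49 for the large subunit and 2 of 29 for the small subunit. Mrpl54 had 6.95-fold (3.76 to 12) from 11 tags on chromosome 10 at 81266703 to 81266917. Mrps18b had 6.75-fold (3.22 to 13) from 7 tags on chromosome 17 at 35916158 to 35916554, and Mrps11 5.68-fold (2.81 to 10.6) from 8 tags on chromosome 7 at 78783113 to 78783327. Mrpl57 had the weakest peak of the group, 4.15-fold (1.73 to 9.32) from 4 tags on chromosome 14 at 57826866 to 57827104. All 4 encode structural proteins of the mitochondrial ribosome, and their intervals overlapped.

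Import had 2 of 25 genes with a peak (8.0%, 0.984 to 26.0). Timm17b, a subunit of the inner membrane TIM23 translocase, had 9.28-fold (4.89 to 16.4) from 10 tags on chromosome X at 7899033 to 7899517, rank 189. Tomm40, the channel of the outer membrane TOM complex, had 4.72-fold (2.61 to 7.97) on chromosome 7 at 19715624 to 19716129. Tomm40 had more tags than Timm17b, 12 against 10, but its local background was 1.76 tags against 0.186, the lowest background in the list. These were the widest peaks of the group, at 485 bp for Timm17b and 506 bp for Tomm40, while the other peaks ran from 210 to 409 bp.

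**Figure D2:**
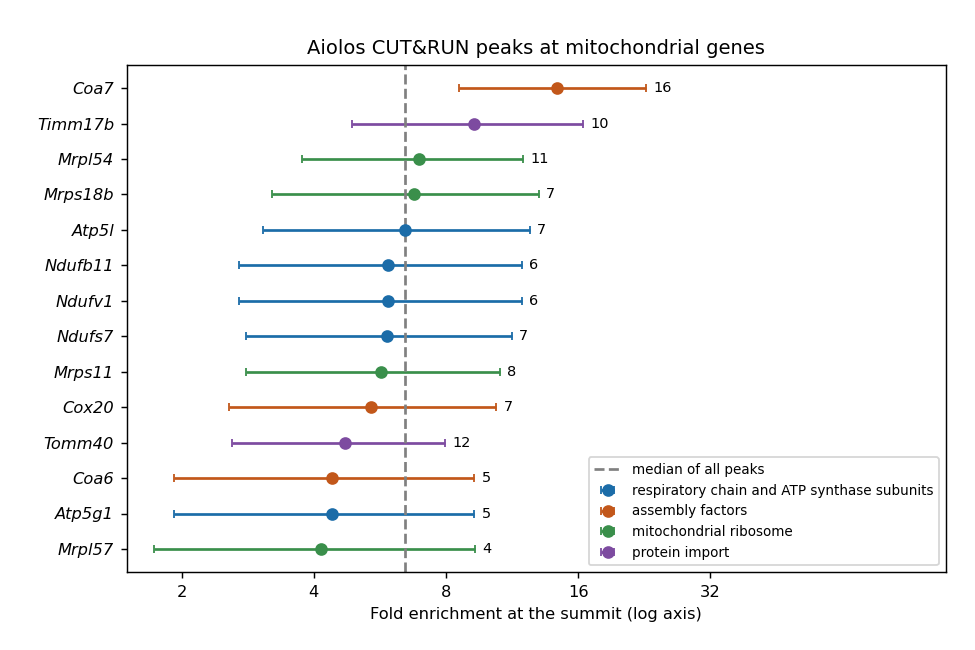
Fold enrichment at the summit (horizontal log axis) of the 14 peaks, coloured by class, with 95% exact Poisson counting intervals and the number of tags beside each; the dashed line is the median of all 1404 peaks, 6.44. Coa7 at 14.3-fold has the one interval (8.56 to 22.8) that lies wholly above the line.

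As a whole, the group had a median fold slightly below that of the list, which its interval holds. The median was 5.88 (95% order-statistic interval 4.40 to 6.95, quartiles 4.88 and 6.67), against 6.44 (6.31 to 6.60) for all peaks and 6.60 for all promoter peaks. Of the 14 peaks, 4 lay above the median of the list, where 48.9% of all peaks do: Coa7, Timm17b, Mrpl54 and Mrps18b. The counting intervals of 13 of the 14 peaks held that median, and 12 of the 13 others overlapped the interval of Coa7, all but Tomm40. The median number of tags was 7 against 8 over the list, and 11 of the 14 peaks (78.6%) rested on 10 tags or fewer, against 71.2% of all. The local background was at its lowest value in 5 of 14 peaks (35.7%), against 26.0% of all. By class, the median fold was 5.90 for the 5 respiratory subunits, 5.39 for the 3 assembly factors, 6.21 for the 4 ribosome genes and 7.0 for the 2 import genes. The ranges overlapped, running from 4.40 to 6.44, 4.40 to 14.3, 4.15 to 6.95 and 4.72 to 9.28, so no order of the classes by strength was resolved.

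All 14 peaks were promoter peaks, with the centre within 1000 bp of the annotated start (100%, 76.8 to 100), where 64.8% of all peaks are. In genes, 14 of 210 (6.67%, 3.69 to 10.9) had a promoter peak, against 3.79% of all protein-coding genes, and with any assigned peak the same 14 genes stood against 5.38%. The interval holds both backgrounds, and the share with any peak is close to that of all genes. The genes of the group were short, with a median length of 5.66 kb against 21.9 kb for protein-coding genes with a peak. Family genes without a peak were short too, at 7.49 kb against 17.1 kb for all protein-coding genes. The part of gene length in the promoter share was not tested. Genes with symbols of cytosolic ribosomal proteins, Rpl7l1 among them, had 8 of 81 with a peak (9.88%, 4.36 to 18.5). These peaks were also all at promoters, with a median fold of 7.17 (5.06 to 9.46).

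Around the start, the summits lay on both sides, 6 upstream and 8 downstream. The upstream share was 42.9% (17.7 to 71.1), against 55.9% of all promoter peaks. The median distance from summit to start was 178 bp in either direction, against 165 bp over all promoter peaks, and 12 of 14 (85.7%) were within 300 bp, against 77.6%. None of the 14 summits was within 50 bp of the start, compared with 105 of 910 promoter peaks, although from its RefSeq start the Mrps11 summit is at 45 bp. The peak itself covered the start in 6 of the 14 (42.9%, against 52.5% of promoter peaks): Coa7, Timm17b, Mrps18b, Ndufv1, Ndufb11 and Mrps11.

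By class the numbers are small. All 4 ribosome summits were downstream, 57 bp at Mrps11, 121 bp at Mrps18b, 143 bp at Mrpl54 and 678 bp at Mrpl57. Both import summits were upstream, at -232 bp for Timm17b and -260 bp for Tomm40. The respiratory subunits were divided. Atp5l at -399 bp, Ndufv1 at -188 bp and Atp5g1 at -127 bp were upstream, while Ndufs7 at 157 bp and Ndufb11 at 170 bp were downstream. Among assembly factors, Cox20 was at -131 bp, Coa6 at 187 bp and Coa7 at 193 bp. The upstream share of the ribosome genes had an interval of 0 to 60.2% and that of the import genes 15.8 to 100%, and both hold the 55.9% of all promoter peaks. The side also depends on the start used. For Ndufs7 the RefSeq start lies 328 bp downstream of the start that the authors' annotation used, and from it the summit is at -171 bp. With RefSeq starts, 7 of 12 summits were upstream and 5 downstream.

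**Figure D3:**
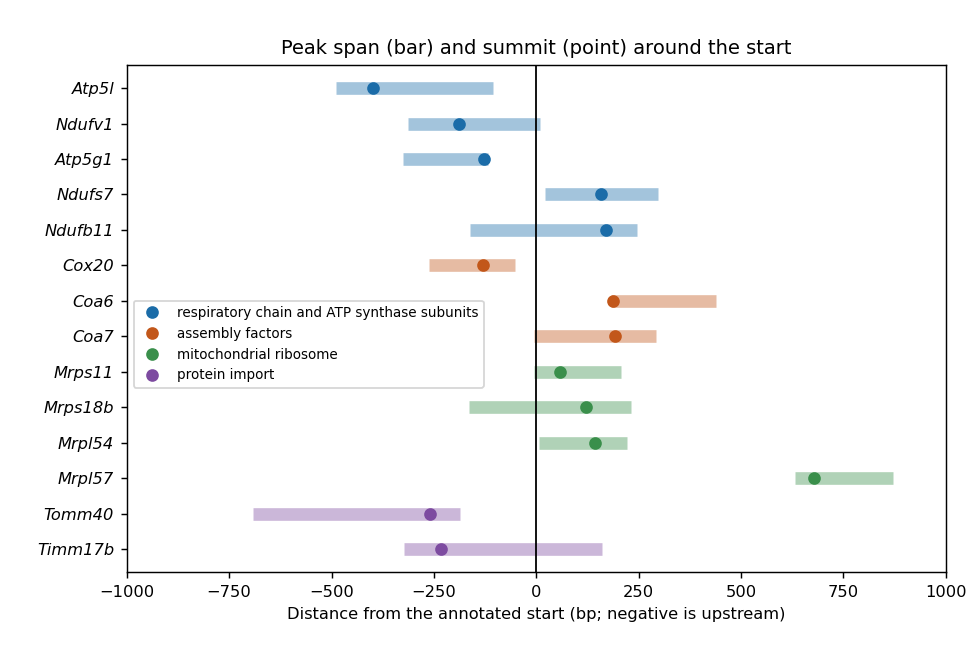
Span of each peak (bar) and its summit (point) in bp from the annotated transcription start, grouped and coloured by class; negative values are upstream. The 4 ribosome summits lie from 57 to 678 bp downstream, the 2 import summits at -260 and -232 bp, and the respiratory subunits on both sides.

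Many of these promoters lie close to another gene, so position alone does not tie the peak to the credited gene. In 10 of 14 peaks (71.4%, 41.9 to 91.6) the end of another gene of the RefSeq table lay within 1000 bp of the peak centre, against 31.1% of all peaks and 38.6% (35.4 to 41.8) of promoter peaks. The neighbour was protein-coding in 7 of 14 (50.0%, 23.0 to 77.0), against 26.9% of promoter peaks. By the starts listed with the RefSeq promoter windows, a start on the opposite strand lay within 1000 bp in 8 of 14 (57.1%, 28.9 to 82.3), against 25.6%. Mrpl54 is not in this count, since the listed start of Apba3 was 1391 bp from its summit. A boundary of Apba3 lay 125 bp from the peak centre. No test of these differences was run.

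At Timm17b, Ndufb11 and Tomm40 the summit was nearer to a neighbour's listed start than to that of the credited gene. The Timm17b summit was 125 bp from the start of Pqbp1, which encodes a splicing-related protein, and 232 bp from its own. The Ndufb11 summit was 54 bp from the start of Rbm10, a splicing regulator, and 170 bp from its own. At Tomm40 it was 234 bp from the start of the long non-coding RNA Gm38955 and 260 bp from its own. The Mrps11 peak, which lay almost wholly inside Mrps11, had its summit 57 bp downstream of the Mrps11 start and 87 bp from the start of Mrpl46, which encodes a large subunit protein on the other strand. The Mrpl57 summit was 749 bp from the listed start of Ska3 and 678 bp from its own. Measured from the peak centre, however, a boundary of Ska3 was 694 bp away and the Mrpl57 start 751 bp. Which gene is nearer at Mrpl57 thus depends on the points used. The remaining protein-coding neighbours were Apba3 at Mrpl54, Ppp1r10 at Mrps18b and Nectin2 at Tomm40. Their nearest boundaries lay 125, 156 and 768 bp from the peak centre.

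Counting by position rather than by credited gene added 3 genes of the families. The Mrps11 peak also counts for Mrpl46, which it did not overlap but whose boundary lay 131 bp from the peak centre. A peak of 4.41-fold (2.02 to 8.87, 6 tags) credited to Lrrc41, on chromosome 4 at 116074937 to 116075322, had its summit 5 bp from the start of Lrrc41 and 194 bp upstream of that of Uqcrh, the hinge subunit of complex III. A peak of 4.83-fold (2.11 to 10.2, 5 tags) credited to Eme1, a DNA repair endonuclease subunit, lay on chromosome 11 at 94653826 to 94654231 with its summit at -246 bp from the start of Eme1 and 419 bp downstream of that of Mrpl27. By position 17 of 210 family genes had a peak within 1000 bp of an end or start (8.10%, 4.79 to 12.6), against 4.86% of all protein-coding genes. In both cases the credited start was the nearer one. Complex III, with 0 genes credited, had only Uqcrh by this count.

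Other nuclear genes of the same pathways also carried peaks, 14 of 123 in 9 lists (11.4%, 6.36 to 18.4) against the 5.38% of all protein-coding genes. At promoters there were 11 (8.94%, 4.55 to 15.4) against 3.79%, without Lars2, Phb and Yy1, whose peaks lay elsewhere. The lists were chosen with earlier results of these data known, so these shares are a description and no sign of enrichment, which was not tested. Among electron carriers and complex III assembly genes, Cycs (cytochrome c) had 6.60-fold and Lyrm7, a chaperone of the Rieske protein, 8.43-fold, 2 of 9 genes. Among further assembly factors, 3 of 22 had a peak: Higd1a at 9.28-fold (4.89 to 16.4), Cmc2 at 7.57-fold and Timmdc1, of complex I assembly, at 5.53-fold. Succinate dehydrogenase and its assembly factors had 0 of 8 (upper 95% exact bound 36.9%), and genes for replication and transcription of mitochondrial DNA 0 of 14 (upper bound 23.2%). All 5 assembly and carrier peaks were at promoters.

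Mitochondrial translation outside the ribosome had promoter peaks at Wars2, the tryptophanyl-tRNA synthetase (8.83-fold, 5.0 to 14.6), and at Mtrf1l, a release factor (8.20-fold, 4.54 to 13.8), in lists of 17 and 10 genes. Import and inner membrane genes had 3 of 18: Hspa9, the matrix chaperone mortalin, at 7.37-fold, Immt (mitofilin) at 4.35-fold, and Phb, a prohibitin, at 5.47-fold and 17.3 kb from its start. Ogdh, of the citric acid cycle, had 1 peak of 5.99-fold and 1 of 6.60-fold, each at a start of its own, and was the only gene of 14 with a peak. Among 11 regulators, Nfe2l2 had a promoter peak of 6.75-fold and Yy1 a peak of 5.06-fold 27.8 kb upstream, while Nrf1, Gabpa and Esrra had none.

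**Figure D4:**
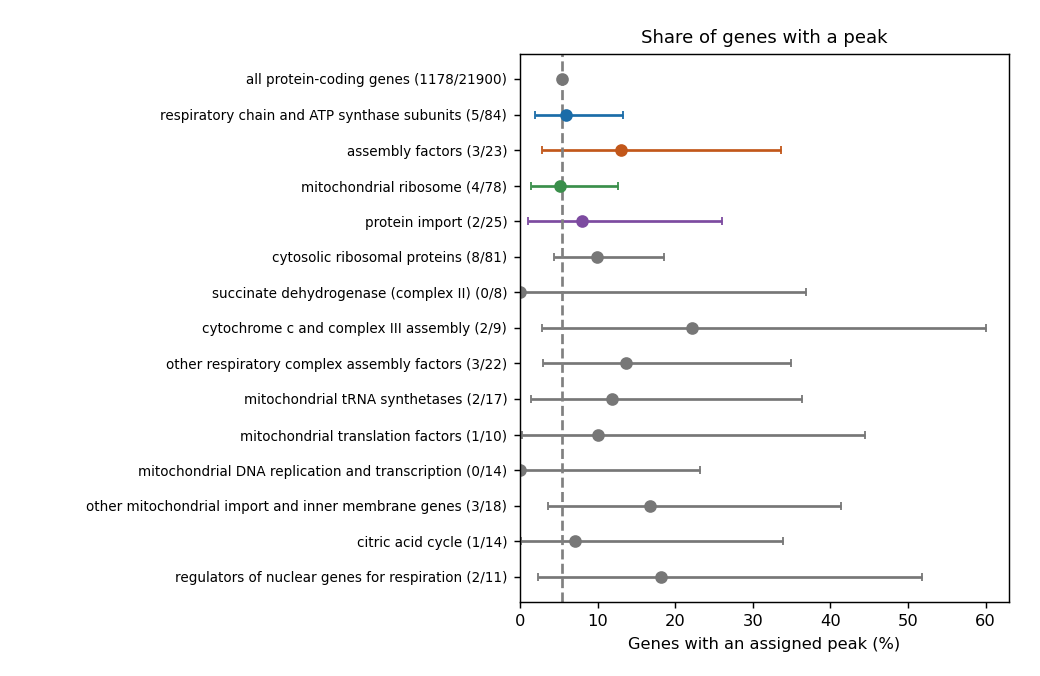
Percent of genes with an assigned peak in each class and pathway list (points) with 95% exact Clopper-Pearson intervals; counts are beside the names and the dashed line is the 5.38% of all 21900 protein-coding genes. Respiratory subunits at 5.95% and the mitochondrial ribosome at 5.13% lie near the line, and each class interval of the 4 coloured classes holds it.

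Over the whole list, the summits held 4 to 63 tags with a median of 8, so single peaks carry wide intervals. Of 11 NK cell marker genes, 5 had an assigned peak (45.5%, 16.7 to 76.6, against 5.38% of all protein-coding genes). Ncr1, Klrk1, Nkg7, Eomes, Tbx21 and Prf1 had none. Of the 11 genes, 2 had a promoter peak (18.2%, 2.28 to 51.8, against 3.79%), Gzmb and Klre1. The peaks of Il2rb, Klrb1c and Klrd1 lay 15.1, 10.1 and 4.54 kb from the start. None of 6 B cell and none of 6 myeloid markers had a peak (upper 95% exact bound 45.9% each). These bounds lie above the 45.5% of the NK list, so the lists are too small to check the labelled cell type. A peak is also no measure of expression.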

How the data were processed

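CUT&RUN libraries with and without the Aiolos antibody, 1 each, are represented by 1 deposited peak list. Per the submitters' processing notes, MACS2, Bowtie2, Picard and SAMtools and the mm10 build were used. Their roles and cutoffs, and which control was used for calling, are not stated in these notes. Each peak has, per the file headers, a deposited signal value, read here as the fold enrichment (a ratio), the -log10 of its p-value and of its q-value, a score (10 times the -log10 q without decimals), its position, summit and an annotated transcript.

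Tags and background were solved for each peak from fold = (tags + 1)/(background + 1) and the Poisson probability of more tags, which returned the -log10 p of all 1404 peaks to within 1.75e-05. On 1404 simulated peaks, 1403 were recovered. This assumes the default form of MACS2. Tags that are copies of 1 molecule would make the intervals too narrow. Genes were matched by identifier to RefSeq (GRCm38.p6), 14 of 14. Summits and motif positions are counted from the start, on the gene's strand. 1 promoter per gene was searched. For genes with a promoter peak it was the one nearest the centre of the strongest such peak, and for other genes the first listed. Motif and base comparisons of genes with and without a peak therefore rest on unlike choices of promoter. Exons and introns were not used here. Python 3.11.15, SciPy 1.17.1 and pandas 2.3.3 were used.

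Members, lists, motifs and alternatives were chosen with earlier results of these data known. All members with a peak and all list genes with a peak are named. No test was run.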

Additional observations from a re-analysis of the deposited data

How the results depend on the processing

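Of 111 recomputed values, 107 stayed within the interval of the reported one or within 1.5 times its count. This says little about stability, since the intervals of classes of 2 to 5 peaks are so wide. Most settings also kept the same 14 peaks, and the motif alternatives used the same 12 promoters, so many values could not move. Under either stricter filter the assembly factors kept only Coa7, and their median fold went from 5.39 to 14.3. The filter on q left only Atp5l among respiratory subunits, which moved their median summit from -127 to -399 bp, and the filter on fold moved the upstream share from 42.9% to 25%. The 727 peaks whose -log10 q reached the median left 5 family genes with a peak, and keeping those above the median fold (687 peaks) left 4, with a median fold of 8.11, since fewer peaks are counted and the filter acts on fold. In the latter set the median fold of the members minus that of all peaks turned from -0.13 to 0.01 log2. With pileup in place of fold it was -0.19. With a window of 500 bp, 92.9% of the peaks were promoter peaks, because the Mrpl57 peak lies farther away. With RefSeq starts, an alternative added after the data were seen like the 2 neighbour counts for protein-coding genes and for opposite starts, 58.3% of summits were upstream, in place of 42.9%. No respiratory subunit remained above the median fold, so that class has no value there. Peaks of 4 to 16 tags limit every comparison between genes. No paired analysis was possible because each group has 1 library.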

Other observations

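The values of these genes were known when they were chosen for mention here. The Ndufs7 peak covered a transfer RNA gene. The asparagine tRNA gene n-TNgtt7, 74 bp at 80249159 to 80249232 on chromosome 10, lay wholly inside the peak, and the first 34 bases of the Ndufs7 sequence printed above belong to it. Of all 1404 peaks, 9 (0.641%) overlapped at least 1 of the 430 tRNA genes of the table. The other 8 were credited to different genes, among them Zfp692, over a pair of tRNA genes, at 7.41-fold and Wnt11 at 8.05-fold. Tags in tRNA genes can map to several near-identical copies, and the handling of such tags is not given in the sources used here.

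Lars2, the mitochondrial leucyl-tRNA synthetase, had the peak with the most tags of the list, 63, in its 3' untranslated region on chromosome 9 at 123461885 to 123462102. Its fold was 4.81 (3.72 to 6.14), since the local background there was 12.3 tags, while the backgrounds of the 14 peaks described above were all under 1 tag except that of Tomm40. The gene has no promoter peak.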
